A study of Mus musculus with 12 samples.

Results

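Expression of 38 genes of glycolysis and pyruvate handling was examined in natural killer (NK) cells sorted from mouse lymph nodes. The genes were listed by name, with earlier results of these data known. They run from glucose transporters to the pyruvate dehydrogenase system, with the pentose phosphate enzymes and the hypoxia-inducible factor Hif1a and its targets. They make up 38 of the 56748 gene IDs counted. All 38 were matched to an Ensembl gene ID, and 37 had enough counts to be tested. RNA was sequenced in 12 libraries, 4 from each of 3 groups. In the hematogenous and lymphatic groups the mice bore a diffuse large B cell lymphoma, an aggressive B cell cancer, that had spread through blood vessels in the hematogenous group and through lymphatic vessels in the lymphatic group. The tumor-free group came from nodes of C57BL/6J mice without tumor. The lymphoma line, the way it was given, the mice's age and sex, any pooling of nodes and the sorting gate were not given in the sources used here. The samples of a group are numbered 1 to 4 without a statement that they came from separate animals, and the p-values below reflect sample-to-sample spread that may be technical.

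Glycolysis splits glucose into pyruvate in the cytosol and yields ATP and NADH. Pyruvate is then either reduced to lactate and exported, or enters the mitochondrion through the pyruvate dehydrogenase complex, which pyruvate dehydrogenase kinases switch off and phosphatases switch on. Resting NK cells rely mostly on mitochondrial respiration, and activated NK cells raise glucose uptake and glycolysis, which their interferon-gamma production and killing partly depend on.

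Counts assigned to genes ranged from 6654215 to 43494812 per library and were lowest in tumor-free libraries 1, 2 and 4. Levels are given as CPM, read counts scaled to library size after TMM, a method that sets libraries on a common scale from most of their genes. The share of reads assigned to genes was 55.4% to 65.5% in hematogenous libraries, 67.1% to 72.1% in lymphatic libraries and 65.7% to 70.7% in tumor-free libraries. Of 11 NK cell markers 10 were found, none at 0 in any group. Their summed level was 8378 to 10334 CPM in hematogenous, 12263 to 15273 CPM in lymphatic and 13583 to 15321 CPM in tumor-free libraries. Markers of other cell types were also read: B cell markers summed to 399 to 579 CPM in hematogenous, 484 to 1004 CPM in lymphatic and 374 to 513 CPM in tumor-free libraries. T cell markers summed to 798 to 1058 CPM in hematogenous, 556 to 877 CPM in lymphatic and 552 to 743 CPM in tumor-free libraries. In bulk samples fewer cells of a type and less RNA per cell cannot be told apart.

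A block of glycolytic and pentose phosphate mRNAs was lower in NK libraries from hematogenous nodes than in both other groups, while the pyruvate dehydrogenase kinase Pdk1 and the enolase isozyme Eno3 were higher. Against tumor-free nodes, 8 of the 37 tested members fell and 3 rose at an adjusted p under 0.05 in edgeR. Of all 16016 tested genes, 6.87% were called lower and 9.52% higher in that comparison. Against lymphatic nodes, 12 members fell and 2 rose, where 5.92% of all tested genes were called lower and 2.93% higher. Lymphatic nodes differed from tumor-free nodes in 1 member, Gapdh, which rose, and in no member that fell, where 2.32% of all genes were called higher and 0.418% lower. The median log2 fold change of the members was -0.12 for hematogenous against tumor-free nodes, beside 0.078 for all tested genes. It was -0.28 beside -0.0060 for hematogenous against lymphatic nodes, and 0.15 beside 0.079 for lymphatic against tumor-free nodes. The list was drawn up with earlier results of these data known, so its excess over the share of all genes is not independent evidence. The comparisons share libraries and an estimate of spread, so a member called in both hematogenous comparisons was not found independently in each.

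The same 7 members fell in hematogenous nodes against each other group: Aldoa, Tpi1, Eno1, Ldha, Slc16a1, Tkt and Taldo1. Another 5 (Hk2, Gpi1, Gapdh, Pgk1 and Pkm) were called lower against lymphatic nodes alone, and Slc2a1 was called lower against tumor-free nodes alone. Pdk1 and Eno3 rose against both groups and Eno2 against tumor-free nodes. In all, 21 tested members were called in no comparison. Most called members are well expressed, and highly expressed genes are called more often. Among the 10413 genes with a mean of at least 5 CPM, 10.4% were called lower against tumor-free nodes and 9% against lymphatic nodes, beside 8 and 12 of the 33 members at that level. The 4 hematogenous libraries did not overlap the 4 tumor-free libraries for 10 members that were lower and 3 that were higher, where 8.01% and 11.5% of all genes did so. Against lymphatic libraries these counts were 16 lower and 3 higher, where 11.3% and 9.17% of all genes did so.

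**Figure D1:**
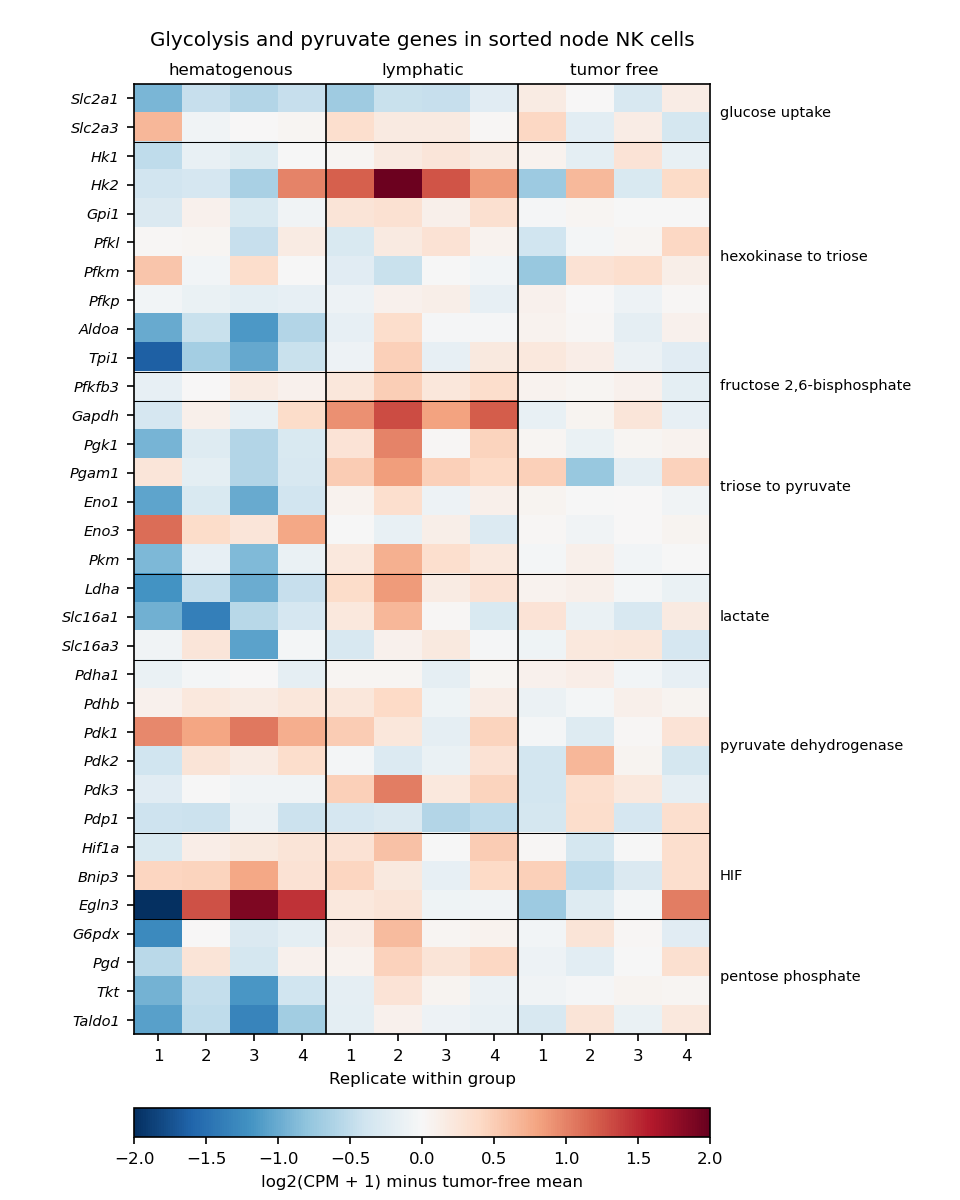
Level of the 33 members with a mean of at least 5 CPM in each of the 12 libraries, as log2(CPM + 1) minus the mean of the 4 tumor-free libraries, with colours clipped at 2 in either direction. Rows are genes grouped by role and columns are libraries. Aldoa, Tpi1, Eno1, Ldha, Tkt and Taldo1 are blue in all 4 hematogenous libraries, deepest in libraries 1 and 3, and Pdk1 and Eno3 are red there.

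Added over all 38 members, the level was 2764, 3540, 2815 and 3502 CPM in hematogenous libraries 1 to 4. It was 4268, 5357, 4226 and 4406 CPM in lymphatic libraries and 4047, 4048, 3909 and 4006 CPM in tumor-free libraries. The hematogenous sums were the 4 lowest of the 12, and the lymphatic sums were all above the tumor-free ones. By role, the genes from triose phosphate to pyruvate summed to 752 ± 181 CPM in hematogenous, 1307 ± 209 CPM in lymphatic and 1049 ± 12.0 CPM in tumor-free libraries (mean ± SD, n = 4 each). The lactate genes summed to 229.9 ± 52.6 CPM in hematogenous, 507 ± 115 CPM in lymphatic and 379.9 ± 29.6 CPM in tumor-free libraries. The pyruvate dehydrogenase genes summed to 369.8 ± 17.8 CPM in hematogenous, 353 ± 38.2 CPM in lymphatic and 334 ± 17.8 CPM in tumor-free libraries. Hematogenous libraries 1 and 3 were the lowest pair of their group for 6 of the 7 members lower against both groups, with assigned shares of 55.4% and 62.8% against 64.3% and 65.5% in libraries 2 and 4. The part of the assigned share in these results was not tested. Without hematogenous library 1, 7 members were called lower against tumor-free nodes and 9 against lymphatic nodes.

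Glucose enters the cell through transporters, here Slc2a1 (GLUT1) and Slc2a3 (GLUT3). Slc2a1 had 44.3, 60.9, 55.8 and 60.7 CPM in hematogenous libraries 1 to 4, 51.1, 61.2, 61.1 and 71.5 CPM in lymphatic libraries and 94.1, 84.2, 67.4 and 93.5 CPM in tumor-free libraries. Every hematogenous library was below every tumor-free one, and hematogenous and lymphatic libraries overlapped. Slc2a1 fell against tumor-free nodes (log2 fold change -0.61, with SE 0.16, edgeR adjusted p = 0.0123). With voom weights this adjusted p was 0.0756. It was not called between hematogenous and lymphatic nodes (-0.14, 95% interval -0.47 to 0.18) or between lymphatic and tumor-free nodes (-0.47, SE 0.16, adjusted p = 0.137). Slc2a3 was not called in any comparison, at 113 ± 29.4 CPM in hematogenous, 113 ± 10.3 CPM in lymphatic and 101 ± 24.7 CPM in tumor-free libraries.

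The upper part of the pathway, from the hexokinases to the triose phosphates, holds 9 members. Of these 2 fell against tumor-free nodes and 4 against lymphatic nodes. Aldoa, the aldolase that cleaves fructose 1,6-bisphosphate, had 145, 215, 131 and 194 CPM in hematogenous libraries, 261, 373, 286 and 288 CPM in lymphatic libraries and 307, 298, 257 and 309 CPM in tumor-free libraries. All hematogenous libraries were below all others, and the lymphatic and tumor-free ranges overlapped. Aldoa fell against tumor-free nodes (log2 fold change -0.77, with SE 0.15, edgeR adjusted p = 0.00218) and against lymphatic nodes (log2 fold change -0.82, with SE 0.15, edgeR adjusted p = 0.00283). Tpi1, the isomerase that interconverts the triose phosphates, had 45.4, 88.9, 70.0 and 105 CPM in hematogenous libraries, 133, 199, 128 and 165 CPM in lymphatic libraries and 165, 157, 133 and 122 CPM in tumor-free libraries. Its hematogenous libraries were again the 4 lowest, with library 1 the lowest of all. Tpi1 fell against tumor-free nodes (log2 fold change -0.90, with SE 0.20, edgeR adjusted p = 0.0051) and against lymphatic nodes (log2 fold change -1.01, with SE 0.20, edgeR adjusted p = 0.00415).

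The hexokinases phosphorylate glucose and so hold it in the cell. Hk2, the isozyme known to rise in activated lymphocytes, had 4.25, 4.44, 3.36 and 12.7 CPM in hematogenous libraries, 14.7, 25.7, 15.4 and 11.4 CPM in lymphatic libraries and 3.16, 9.77, 4.56 and 7.92 CPM in tumor-free libraries. Every lymphatic library was above every tumor-free one, and hematogenous library 4 lay within the lymphatic range. Hk2 was lower in hematogenous than in lymphatic nodes (log2 fold change -1.44, with SE 0.45, edgeR adjusted p = 0.0484). That call was lost under 6 of 10 alternatives, and when any of 9 libraries was left out (hematogenous 1, 2 and 3, each of the lymphatic ones, tumor-free 3 and 4), with a highest adjusted p of 0.233. Between lymphatic and tumor-free nodes the log2 fold change of Hk2 was 1.42 (SE 0.45, adjusted p = 0.111), which was not called. Hk1, the more abundant hexokinase, was not called in any comparison (124 ± 17.7 CPM in hematogenous, 162 ± 9.23 CPM in lymphatic and 146 ± 22.3 CPM in tumor-free libraries).

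Gpi1, which turns glucose 6-phosphate into fructose 6-phosphate, had 271, 351, 266 and 313 CPM in hematogenous libraries, 392, 406, 353 and 413 CPM in lymphatic libraries and 323, 339, 328 and 327 CPM in tumor-free libraries. All hematogenous libraries were below all lymphatic ones, by a narrow margin. The fall was small (log2 fold change -0.38, with SE 0.11, edgeR adjusted p = 0.039). It was lost under 7 of 10 alternatives, and when any of 9 libraries was left out (hematogenous 1, 3 and 4, lymphatic 1, 2 and 4, tumor-free 1, 2 and 4), with a highest adjusted p of 0.212. The phosphofructokinases Pfkl, Pfkm and Pfkp, which catalyse the committed step, were not called in any comparison. Pfkp, the most abundant of them, had 383 ± 16.0 CPM in hematogenous, 419 ± 39.7 CPM in lymphatic and 422 ± 23.7 CPM in tumor-free libraries, with a 95% interval of -0.36 to 0.081 for the log2 fold change of hematogenous against tumor-free nodes. Pfkfb3 and Pfkfb4, which make the phosphofructokinase activator fructose 2,6-bisphosphate, were not called. Pfkfb3 had 58.1 ± 5.51 CPM in hematogenous, 71.4 ± 6.59 CPM in lymphatic and 57.0 ± 5.17 CPM in tumor-free libraries. Aldoc averaged at most 1.34 CPM in any group and was not called.

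**Figure D2:**
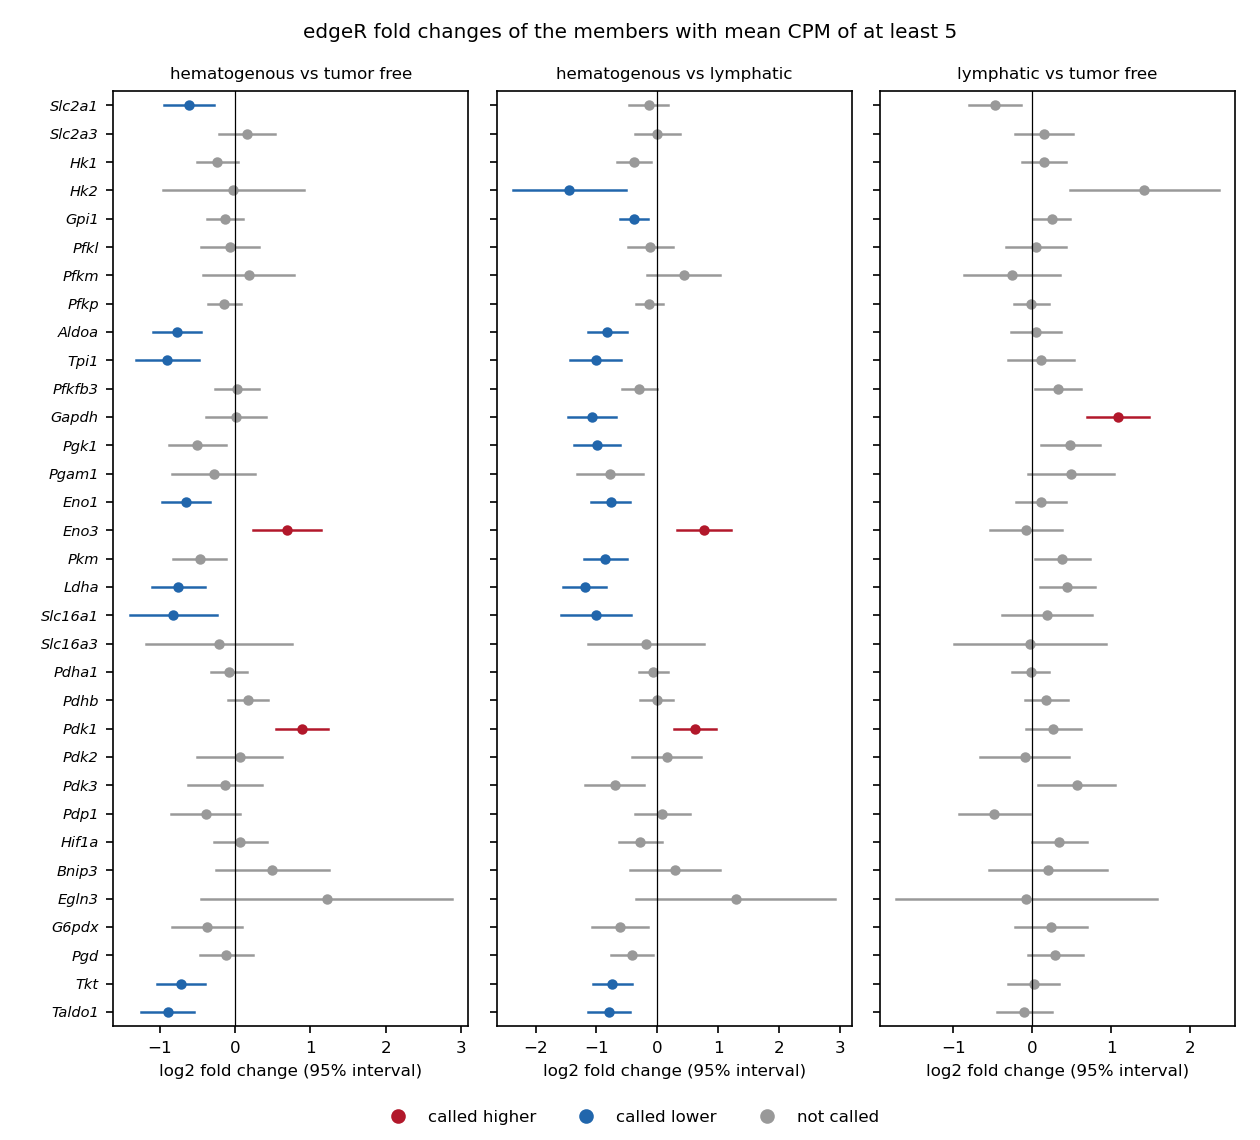
edgeR log2 fold change (horizontal axis) with its 95% interval for the 33 members with a mean of at least 5 CPM in each comparison, a panel per comparison, with genes in the order of the pathway. Against tumor-free nodes 8 intervals are blue (called lower), against lymphatic nodes 12, and in the panel of lymphatic against tumor-free nodes Gapdh alone is coloured.

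From triose phosphate to pyruvate, 1 of 7 members fell against tumor-free nodes and 4 fell against lymphatic nodes. Gapdh, which oxidizes glyceraldehyde 3-phosphate, had 23.9, 32.9, 27.6 and 40.0 CPM in hematogenous libraries, 58.3, 77.5, 54.0 and 72.0 CPM in lymphatic libraries and 27.6, 32.0, 36.3 and 27.3 CPM in tumor-free libraries. The 4 lymphatic libraries stood above all others, and hematogenous and tumor-free libraries overlapped. Gapdh was lower in hematogenous than in lymphatic nodes (log2 fold change -1.07, with SE 0.19, edgeR adjusted p = 0.00203) and higher in lymphatic than in tumor-free nodes (log2 fold change 1.08, with SE 0.19, edgeR adjusted p = 0.00224). Between hematogenous and tumor-free nodes its log2 fold change was 0.011 (95% interval -0.38 to 0.41). Gapdh has many near-identical pseudogene copies, and reads with several alignments (3.85% to 6.48% of a library) stayed out of the gene counts. Its level per kilobase of exon, 7.45 CPM in tumor-free libraries against 51.6 CPM for Pgk1, is therefore uncertain, as are its fold changes. That level also depends on the length used, all annotated exons merged, which was 4133 bases for Gapdh and 2244 for Pgk1. Counts on gene IDs named as pseudogene copies came to 2.45% of those of Gapdh, 5.20% for Pgam1, 1.06% for Pgk1 and 0.684% for Ldha.

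Pgk1, the first ATP-yielding enzyme of the pathway, had 59.9, 96.4, 77.0 and 93.3 CPM in hematogenous libraries, 139.7, 232, 118 and 157 CPM in lymphatic libraries and 119, 105, 119 and 121 CPM in tumor-free libraries. Hematogenous libraries were below all lymphatic and all tumor-free ones. Pgk1 fell against lymphatic nodes (log2 fold change -0.98, with SE 0.18, edgeR adjusted p = 0.00264). Against tumor-free nodes the log2 fold change was -0.50 (SE 0.18, adjusted p = 0.0623), a call that 6 of 10 alternatives did make. Pkm, the pyruvate kinase of most tissues, had 242, 402, 244 and 409.8 CPM in hematogenous libraries, 519.7, 736, 568 and 521 CPM in lymphatic libraries and 439, 482, 434 and 446 CPM in tumor-free libraries. Here too the hematogenous libraries were the 4 lowest. Pkm fell against lymphatic nodes (log2 fold change -0.85, with SE 0.17, edgeR adjusted p = 0.00374) and stood at -0.47 against tumor-free nodes (SE 0.17, adjusted p = 0.0586), which 6 of 10 alternatives called. Pgam1, the phosphoglycerate mutase, was not called (20.4 ± 5.26 CPM in hematogenous, 34.9 ± 5.01 CPM in lymphatic and 24.8 ± 9.58 CPM in tumor-free libraries, adjusted p = 0.0685 for hematogenous against lymphatic nodes).

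The enolases, which make phosphoenolpyruvate, moved in opposite directions. Eno1, the main isozyme of most cells, had 195, 328, 202 and 311 CPM in hematogenous libraries, 429, 513, 381 and 435 CPM in lymphatic libraries and 424, 404, 411 and 389 CPM in tumor-free libraries. It was lower in every hematogenous library than in any other, and fell against tumor-free nodes (log2 fold change -0.65, with SE 0.15, edgeR adjusted p = 0.00722) and against lymphatic nodes (log2 fold change -0.76, with SE 0.15, edgeR adjusted p = 0.00472). Eno3, known as the muscle isozyme, had 46.0, 27.0, 24.5 and 36.0 CPM in hematogenous libraries, 20.5, 18.4, 22.5 and 16.9 CPM in lymphatic libraries and 20.9, 19.5, 20.8 and 21.4 CPM in tumor-free libraries. It was above every other library in all 4 hematogenous ones, with library 1 the highest, and rose against tumor-free nodes (log2 fold change 0.69, with SE 0.22, edgeR adjusted p = 0.0362) and against lymphatic nodes (log2 fold change 0.77, with SE 0.22, edgeR adjusted p = 0.0306). The Eno3 call against tumor-free nodes was lost under 4 of 10 alternatives and when any of 7 libraries was left out (hematogenous 1 and 4, lymphatic 2 and 4, tumor-free 1, 2 and 3; highest adjusted p = 0.135), and against lymphatic nodes with voom weights (adjusted p = 0.0966) and when any of 5 libraries was left out (hematogenous 1 and 4, lymphatic 1, 2 and 4; highest adjusted p = 0.107). Eno2, the neuronal isozyme, had 1.98, 1.62, 2.22 and 0.950 CPM in hematogenous libraries, 0.0708, 1.07, 0 and 0.337 CPM in lymphatic libraries and 0 in all tumor-free ones, from 101, 50 and 0 counts. Set against a floor of 3 counts over the tumor-free group, the pooled hematogenous level of Eno2 was 25.7 times that floor. The pooled lymphatic level was 6.37 times that floor, with 39 of its 50 counts in library 2. These folds leave out the spread between libraries. Against tumor-free nodes Eno2 was called in hematogenous libraries (edgeR adjusted p = 0.015) and not in lymphatic ones (edgeR adjusted p = 0.18).

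**Figure D3:**
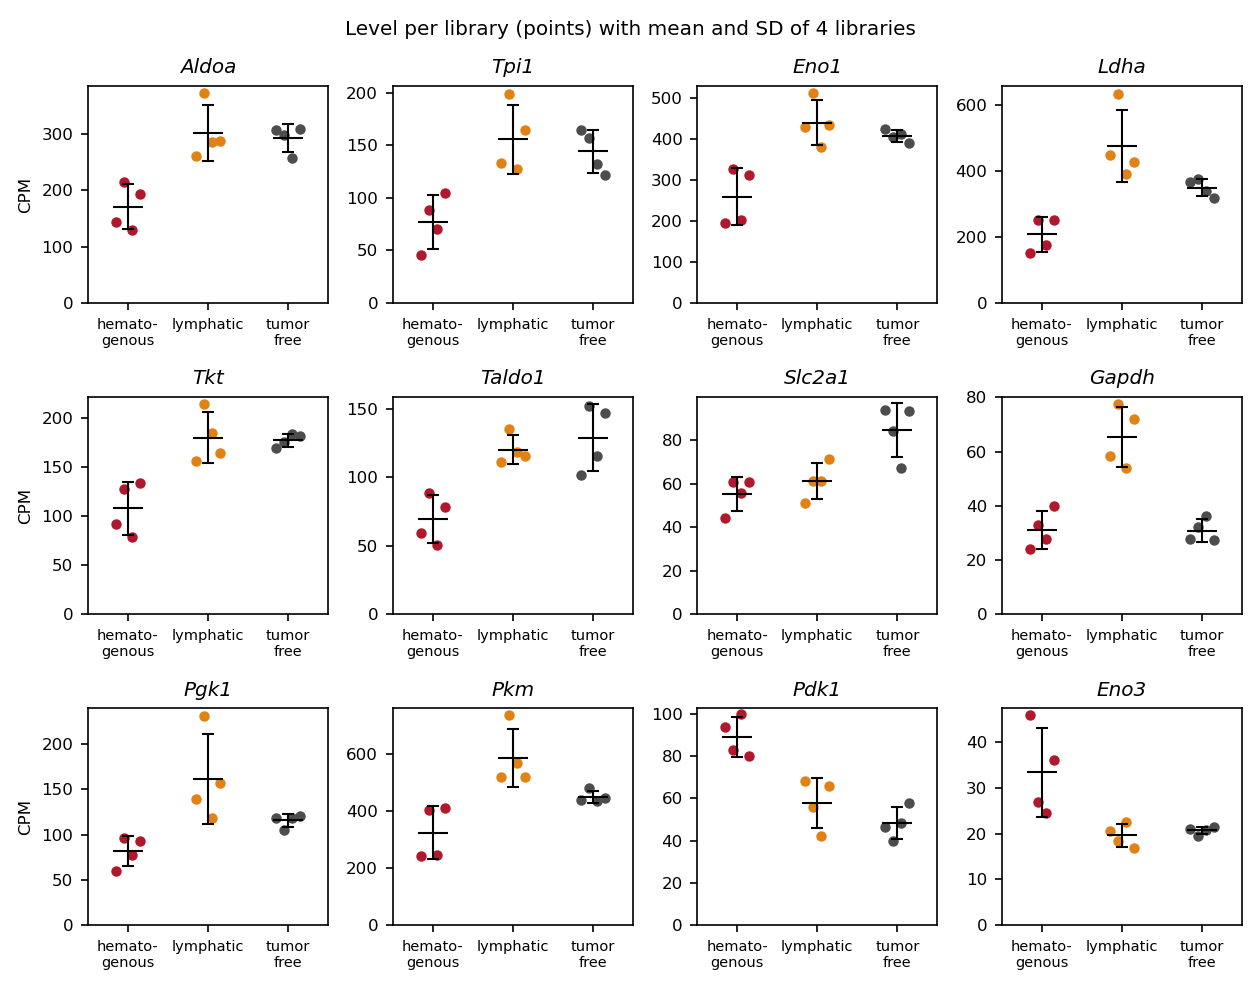
CPM of 12 members in each library (points) with the mean and SD of the 4 libraries of a group (bars), vertical axes from 0. For Aldoa, Tpi1, Eno1, Ldha, Tkt, Taldo1, Pgk1 and Pkm the 4 hematogenous libraries lie below both other groups, for Pdk1 and Eno3 above them, and for Gapdh the lymphatic libraries lie above both.

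Of the 4 genes of lactate formation and export, Ldha and Slc16a1 fell in hematogenous nodes against both groups. Ldha, the lactate dehydrogenase subunit that favours lactate formation, had 152, 251, 175 and 253 CPM in hematogenous libraries, 450.1, 634, 392 and 428 CPM in lymphatic libraries and 366, 376, 341 and 318 CPM in tumor-free libraries. Hematogenous libraries were the 4 lowest, and every lymphatic library was above every tumor-free one. Ldha fell against tumor-free nodes (log2 fold change -0.75, with SE 0.17, edgeR adjusted p = 0.0049) and against lymphatic nodes (log2 fold change -1.19, with SE 0.17, edgeR adjusted p = 0.000376), and at 0.44 was not called between lymphatic and tumor-free nodes (adjusted p = 0.203). Ldhb, the subunit that favours lactate oxidation, was rare, at 4.93 ± 0.932 CPM in hematogenous, 0.937 ± 0.436 CPM in lymphatic and 2.46 ± 4.67 CPM in tumor-free libraries, and was not called. Slc16a1 (MCT1), a proton-coupled transporter of lactate and pyruvate, had 10.6, 7.72, 14.3 and 16.8 CPM in hematogenous libraries, 25.2, 34.7, 21.9 and 17.2 CPM in lymphatic libraries and 26.2, 19.5, 17.1 and 24.5 CPM in tumor-free libraries. Every hematogenous library was below every other library, with library 4 closest. Slc16a1 fell against tumor-free nodes (log2 fold change -0.82, with SE 0.28, edgeR adjusted p = 0.049) and against lymphatic nodes (log2 fold change -1.01, with SE 0.28, edgeR adjusted p = 0.027). The call against tumor-free nodes was lost under 4 of 10 alternatives and when any of 8 libraries was left out (hematogenous 1, 2 and 3, lymphatic 1 and 3, tumor-free 1, 2 and 4; highest adjusted p = 0.142), and that against lymphatic nodes with voom weights (adjusted p = 0.107) and when any of 5 libraries was left out (hematogenous 1, 2 and 3, lymphatic 1 and 2; highest adjusted p = 0.143). Slc16a3 (MCT4), the lactate exporter of highly glycolytic cells, was not called, at 4.72 ± 1.91 CPM in hematogenous, 5.37 ± 0.951 CPM in lymphatic and 5.46 ± 1.15 CPM in tumor-free libraries.

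The 250 bases before the RefSeq start sites are shown for Ldha and Slc16a1, which fell against both groups. They are also shown for Pdk1, which rose against both. Members that moved together could so be set beside ACGTG, a form of the core of the hypoxia response element. Capitals mark each match to ACGTG or its reverse complement CACGT, which merge into CACGTG where they overlap, 5′ to 3′ on the plus strand of GRCm38.p6, an older build than the counts' own.
Ldha, chr7:46845554-46845803: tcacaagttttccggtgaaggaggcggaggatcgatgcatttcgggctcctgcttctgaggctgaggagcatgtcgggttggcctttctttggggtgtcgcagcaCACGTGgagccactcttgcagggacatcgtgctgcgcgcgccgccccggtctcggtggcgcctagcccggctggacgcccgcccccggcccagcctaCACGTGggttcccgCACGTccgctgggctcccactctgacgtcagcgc
Slc16a1, chr3:104638414-104638663: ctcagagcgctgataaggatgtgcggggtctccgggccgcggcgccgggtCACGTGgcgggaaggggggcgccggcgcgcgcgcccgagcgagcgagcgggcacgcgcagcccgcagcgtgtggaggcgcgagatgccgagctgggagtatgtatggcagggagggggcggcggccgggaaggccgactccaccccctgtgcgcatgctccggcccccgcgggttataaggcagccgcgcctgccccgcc
Pdk1, chr2:71872974-71873223: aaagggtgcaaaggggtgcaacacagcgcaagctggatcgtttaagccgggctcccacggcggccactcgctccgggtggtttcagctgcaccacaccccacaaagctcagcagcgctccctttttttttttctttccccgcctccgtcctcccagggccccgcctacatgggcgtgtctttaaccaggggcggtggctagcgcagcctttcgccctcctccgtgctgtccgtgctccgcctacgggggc
Where a gene had several windows, the one with the most matches is shown. Ldha had 2 windows, of which 1 held a match, and Pdk1 had 2, neither with a match. The Ldha window shown held CACGTG starting 145 and 48 bases before the start site and CACGT starting 34 bases before it. The Slc16a1 window held CACGTG starting 200 bases before the start site, and the Pdk1 window held no match. In windows of 250 bases before to 50 bases after the start, ACGTG on either strand was found in 19.6% of all 32851 windows, and for 21.8% of 27025 genes in at least 1 window. It was found for 21 of the 36 members with a window, for 3 of the 7 that fell against both groups and for 13 of the 19 called in no comparison. CACGTG, which contains ACGTG, was found in 7.15% of all windows, and for 8.09% of the 27025 genes in at least 1 window. It was found for 7 of the 36 members. Ldha and Slc16a1 were the only 2 of the 7 members that fell against both groups to hold it. Tpi1, Eno1, Tkt and Taldo1 held no match to ACGTG, so the windows shown do not stand for the 7. These are counts of letters in a window and say nothing about binding.

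In the pyruvate dehydrogenase system, 1 of 6 tested members was called, the kinase Pdk1. The subunits Pdha1 and Pdhb of the complex were not called in any comparison. Pdha1 had 129 ± 7.85 CPM in hematogenous, 135 ± 9.55 CPM in lymphatic and 137 ± 12.7 CPM in tumor-free libraries, with a 95% interval of -0.33 to 0.15 for hematogenous against tumor-free nodes. Pdk1, a kinase that inactivates the complex and is a known target of HIF, had 93.9, 82.9, 99.8 and 79.8 CPM in hematogenous libraries, 68.3, 55.8, 42.0 and 65.7 CPM in lymphatic libraries and 46.5, 39.7, 48.5 and 58.0 CPM in tumor-free libraries. The 4 hematogenous libraries were the highest of the 12, and the lymphatic and tumor-free ranges overlapped. Pdk1 rose against tumor-free nodes (log2 fold change 0.89, with SE 0.17, edgeR adjusted p = 0.0016) and against lymphatic nodes (log2 fold change 0.62, with SE 0.17, edgeR adjusted p = 0.0233). The call against lymphatic nodes was lost with voom weights and with the gene length trend removed (highest adjusted p = 0.149), and without lymphatic library 2 or 3 or hematogenous library 3 (highest adjusted p = 0.0796). Pdk2, Pdk3 and the phosphatase Pdp1 were not called. Pdk3 had 17.2 ± 1.16 CPM in hematogenous, 28.0 ± 7.38 CPM in lymphatic and 18.9 ± 4.40 CPM in tumor-free libraries (adjusted p = 0.0676 for hematogenous against lymphatic nodes). Pdk4 was too low to be tested, with 19 counts in hematogenous, 10 in lymphatic and 16 in tumor-free libraries.

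Hif1a, the oxygen-regulated transcription factor subunit that drives many glycolytic genes, had 62.4, 84.7, 88.3 and 92.0 CPM in hematogenous libraries, 94.3, 116, 76.5 and 110.4 CPM in lymphatic libraries and 78.3, 60.2, 76.6 and 97.4 CPM in tumor-free libraries. The 3 groups overlapped. Its log2 fold change was 0.068 against tumor-free nodes (95% interval -0.28 to 0.42) and -0.28 against lymphatic nodes (95% interval -0.63 to 0.073), neither called. The HIF targets Bnip3 and Egln3 were not called either. Egln3, an oxygen-sensing prolyl hydroxylase, had 0, 9.59, 15.0 and 11.0 CPM in hematogenous libraries, 4.08, 4.21, 3.12 and 3.16 CPM in lymphatic libraries and 1.64, 2.66, 3.24 and 7.92 CPM in tumor-free libraries. Hematogenous libraries 2, 3 and 4 were the highest of the 12 and library 1 was at 0. HIF acts largely through protein stability, which these mRNA levels do not measure.

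In the pentose phosphate pathway, which branches from glucose 6-phosphate, 2 of 4 members fell, both enzymes of its non-oxidative branch. Tkt, the transketolase that returns sugar phosphates to glycolysis, had 92.1, 127, 78.7 and 134 CPM in hematogenous libraries, 157, 215, 185 and 164 CPM in lymphatic libraries and 169, 175, 184 and 182 CPM in tumor-free libraries. The hematogenous libraries were the 4 lowest, and the other groups overlapped. Tkt fell against tumor-free nodes (log2 fold change -0.72, with SE 0.15, edgeR adjusted p = 0.00394) and against lymphatic nodes (log2 fold change -0.74, with SE 0.15, edgeR adjusted p = 0.00597). Taldo1, the transaldolase, had 59.5, 88.7, 50.5 and 78.4 CPM in hematogenous libraries, 111, 135, 119 and 115 CPM in lymphatic libraries and 101, 152, 115 and 147 CPM in tumor-free libraries. It too was lowest in the hematogenous libraries and fell against tumor-free nodes (log2 fold change -0.89, with SE 0.17, edgeR adjusted p = 0.00162) and against lymphatic nodes (log2 fold change -0.79, with SE 0.17, edgeR adjusted p = 0.00655). The oxidative enzymes G6pdx and Pgd, which make NADPH, were not called. G6pdx had 43.8 ± 14.7 CPM in hematogenous, 67.0 ± 14.5 CPM in lymphatic and 56.9 ± 8.16 CPM in tumor-free libraries (adjusted p = 0.0929 for hematogenous against lymphatic nodes), and Pgd had 103 ± 26.5 CPM in hematogenous, 137 ± 16.5 CPM in lymphatic and 112 ± 18.7 CPM in tumor-free libraries.

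The balance between isozymes was compared as a share of CPM per kilobase of exon within each library, a measure added after the data had been seen. Exon length merged all annotated exons of a gene: 5379 bases for Eno1, 1739 for Eno3, 3310 for Ldha and 1570 for Ldhb. The size of a share therefore depends on the annotation, while the same lengths were used in every library. Eno3 made up 41.9%, 20.2%, 27.0% and 26.3% of the enolase level in hematogenous libraries 1 to 4. It made up 10.0% to 15.5% in lymphatic and 13.0% to 14.6% in tumor-free libraries. Hematogenous shares were above both other groups (exact permutation test, two-sided p = 0.0286 each, the smallest that 4 against 4 allows). Eno3 lay above and Eno1 below both other groups in the same libraries, so this result followed from those levels and adds no support. Pdk1 made up 47.0% ± 5.59 of the kinase level in hematogenous libraries, 31.0% ± 4.22 in lymphatic libraries and 32.6% ± 8.63 in tumor-free libraries (SD, n = 4 each; exact p = 0.0286 against each). Ldhb made up 5.08% ± 2.06 of the lactate dehydrogenase level in hematogenous libraries, 0.442% ± 0.229 in lymphatic libraries and 1.32% ± 2.49 in tumor-free libraries (exact p = 0.0286 against lymphatic and 0.0857 against tumor-free nodes). In hematogenous libraries Ldhb lay above and Ldha below all lymphatic libraries, so the p against lymphatic nodes followed from those levels. Pdk1 was already highest in the 4 hematogenous libraries, so its share is not separate support either. Hk2 made up 6.33% ± 3.37 of the hexokinase level in hematogenous libraries, 12.8% ± 3.88 in lymphatic libraries and 6.10% ± 3.41 in tumor-free libraries (exact p = 0.0571 for hematogenous against lymphatic and for lymphatic against tumor-free nodes). Over the 21 share comparisons made, the lowest Benjamini-Hochberg adjusted exact p was 0.12.

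**Figure D4:**
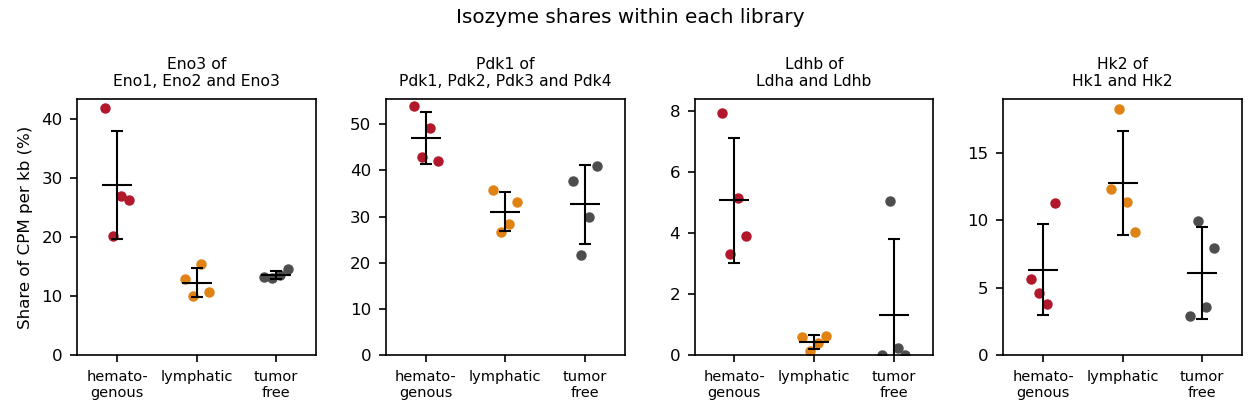
Share of 1 isozyme in the CPM per kilobase of its family (vertical axis, percent) in each library (points), with the mean and SD of 4 libraries (bars). The 4 hematogenous points lie above both other groups for Eno3 and Pdk1 and above the lymphatic points for Ldhb, and 3 of the 4 lie below the lymphatic points for Hk2.

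Between lymphatic and tumor-free nodes edgeR called Gapdh alone among the members. At an unadjusted p under 0.05 in edgeR, 9 of the 37 tested members were higher and 2 lower, where 10.2% and 3.42% of all tested genes were so. DESeq2 called 1 member lower, Slc2a1. The log2 fold change was positive for 24 members and negative for 13, beside 58.3% positive among all tested genes. Without overlap, 6 members were higher and 0 lower, where 7.66% and 2.24% of all genes were so. Lymphatic library 2 was the highest of its group for 21 of the 33 members with a mean of at least 5 CPM, and for all 7 of those that fell against both groups. Without it, the log2 fold changes of Aldoa, Tpi1, Eno1, Slc16a1 and Tkt between lymphatic and tumor-free nodes were -0.11, -0.057, -0.0045, -0.056 and -0.11, and 9 members were called lower in hematogenous against lymphatic nodes.

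A further 57 genes of the same pathways were listed, of which 47 were tested. Against tumor-free nodes 7 rose and 1 fell in hematogenous nodes, where 9.52% of all tested genes were called higher and 6.87% lower. Against lymphatic nodes 5 rose and 3 fell, where 2.93% of all tested genes were called higher and 5.92% lower. Txnip, an inhibitor of glucose uptake and of thioredoxin, had 1031, 2479, 2723 and 3032 CPM in hematogenous libraries, 593, 512, 533 and 638 CPM in lymphatic libraries and 580.0, 556, 595 and 748 CPM in tumor-free libraries. All hematogenous libraries were above all others, and Txnip rose against tumor-free nodes (log2 fold change 1.90, with SE 0.23, edgeR adjusted p = 6.37e-05) and against lymphatic nodes (log2 fold change 2.03, with SE 0.23, edgeR adjusted p = 6.28e-05). Mlxip (MondoA), a glucose-sensing transcription factor that activates Txnip, had 543 ± 88.4 CPM in hematogenous, 319 ± 54.1 CPM in lymphatic and 224 ± 30.2 CPM in tumor-free libraries, and rose against tumor-free nodes (log2 fold change 1.28, with SE 0.15, edgeR adjusted p = 4.08e-05) and lymphatic nodes (log2 fold change 0.77, with SE 0.14, edgeR adjusted p = 0.00284). Bsg (basigin), the chaperone that carries the lactate transporters to the membrane, had 96.7 ± 15.9 CPM in hematogenous, 155 ± 23.8 CPM in lymphatic and 158 ± 23.4 CPM in tumor-free libraries, and fell against tumor-free nodes (log2 fold change -0.71, with SE 0.15, edgeR adjusted p = 0.00338) and lymphatic nodes (log2 fold change -0.68, with SE 0.15, edgeR adjusted p = 0.00791). Adpgk, an ADP-dependent glucokinase, rose against tumor-free nodes (log2 fold change 0.90, with SE 0.20, edgeR adjusted p = 0.00419), and Ddit4, a stress-induced inhibitor of mTORC1, rose against lymphatic nodes (log2 fold change 1.98, with SE 0.40, edgeR adjusted p = 0.00826). Ddit4 had 25.2, 137, 85.4 and 114 CPM in hematogenous libraries 1 to 4 and 15.1 to 29.0 CPM in lymphatic libraries. Hematogenous library 1 thus lay within the lymphatic range. Between lymphatic and tumor-free nodes edgeR called 0 of the 47, with 9 at an unadjusted p under 0.05 beside 13.7% of all tested genes, where DESeq2 called 1 lower and voom with quality weights called 0.

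Marker genes moved with the same groups. In hematogenous nodes 8 of 10 NK markers fell against tumor-free nodes and 7 of 10 against lymphatic nodes, where 6.87% and 5.92% of all tested genes did so. T cell markers rose for 3 of 11 against tumor-free nodes and 2 of 11 against lymphatic nodes, with none at 0 in any group. Of all tested genes 9.52% and 2.93% rose in these comparisons. Myeloid markers rose for 6 of 12 tested against tumor-free nodes, where Cd14 was at 0 in tumor-free libraries. Of 6 tested markers of the innate lymphoid cells ILC2 and ILC3, 4 rose and 1 fell against tumor-free nodes, and none was called against lymphatic nodes. Between lymphatic and tumor-free nodes 2 of these 6 rose, where 2.32% of all tested genes did so. B cell markers rose for 1 of 13 and dendritic cell markers for 1 of 4 tested in hematogenous against tumor-free nodes. Genes of the cell cycle summed to 327 to 459 CPM in hematogenous, 752 to 1104 CPM in lymphatic and 461 to 657 CPM in tumor-free libraries, and 9 of 12 fell in hematogenous against lymphatic nodes. The 3 ranges did not overlap. Stromal and endothelial markers summed to 120 to 139 CPM in hematogenous, 162 to 174 CPM in lymphatic and 117 to 129.6 CPM in tumor-free libraries, with the lymphatic libraries above all others. Nearly all of that sum was Pecam1, which leukocytes also express, with means of 125 CPM in hematogenous, 168 CPM in lymphatic and 116 CPM in tumor-free libraries. The other 10 markers of that list averaged at most 1.07 CPM over all libraries. Erythroid and platelet markers summed to 0.851 to 54.4 CPM in hematogenous, 13.2 to 38.1 CPM in lymphatic and 0 to 14.4 CPM in tumor-free libraries, with Pf4 and Ppbp at 0 in every group. The part of these markers in the results for the glycolytic genes was not tested. Called genes also differed in length: the median exon length was 6051 bases for genes called higher and 2844 for genes called lower in hematogenous against tumor-free nodes, beside 3310 for the 7 members that fell against both groups and 3645 for all tested genes. With the gene length trend removed, 12 members were called lower against tumor-free nodes and 12 against lymphatic nodes. Of all tested genes, 1464 were then called lower against tumor-free nodes, beside 1100 without that step, and 749 against lymphatic nodes, beside 948.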

How the data were processed

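NK cells were sorted from dissociated lymph nodes, and poly(A) RNA was sequenced as stranded single-end reads of 120 bp, per the labels' protocols. Each library has its own deposited table of raw counts made by the authors, with 56748 gene IDs and 5 summary lines. Per the submitters' processing notes, GRCm39 was the genome build, and the tools were HTSeq 2.0.2, HISAT2 2.1.0, Trimmomatic 0.39 and FastQC 0.11.9. Neither the annotation release nor the strand option of counting was found in the sources used here, so overlapping and antisense genes may share reads.

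Library sizes and tests leave out the summary lines, of which reads in no feature were 11.4% to 24.6% of a library. GENCODE M21 gave symbols for 52073 gene IDs (91.8%), and exon lengths (all annotated exons of a gene merged) for 97.8% of the tested genes. These come from an older build. The test was edgeR 4.0.16 in R 4.3.3 (robust quasi-likelihood F test, TMM scaling, default expression filter by group, group as the only term, all 12 libraries, 9 residual degrees of freedom, 16016 genes, biological coefficient of variation 0.429) with calls made where the p adjusted by Benjamini-Hochberg over all tested genes was under 0.05. For a log2 fold change, SE was taken as its size over the square root of F. The edgeR step was tested on simulated data. CPM is scaled by TMM. Depth was 6654215 to 43494812 gene counts. The floor of 3 counts covers counting error only.

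The members, the further genes and the markers were chosen with earlier results of these data known. Values per library are given for members called in any comparison and for Slc2a1, Hk2, Gapdh, Pkm, Ldha, Pdk1, Hif1a and Tkt, as well as up to 6 per comparison without overlap, with a mean of at least 5 CPM and an absolute log2 fold change of at least 0.5. Of the further genes, up to 4 called ones per comparison with the smallest adjusted p are named. Egln3 and the isozyme shares were chosen after their values were seen. Alternatives were 3 scalings (upper quartile, library size alone and the size factors of DESeq2), no expression filter, DESeq2 1.42.0, voom with quality weights in limma 3.58.1, the compared groups alone, a replicate block, equal depth of 6654215 counts, removal of the gene length trend, and leaving out each library.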

Additional observations from a re-analysis of the deposited data

Results flagged for a closer look

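In 10 of 114 groups of 4 libraries examined, 1 library stood far from the others of its group. Its gap to the nearest neighbour, divided by the range of the group, was over Dixon's 95% critical value for that group size. Chance flags about 1 in 20 groups. Among the members, hematogenous library 4 had 12.7 CPM of Hk2 and tumor-free library 2 had 105 CPM of Pgk1. Of the isozyme shares, Slc2a3 made up 63.1% of the level of Slc2a1 and Slc2a3 in hematogenous library 1, and Ldhb made up 5.04% of the level of Ldha and Ldhb in tumor-free library 2. Tumor-free library 3 held 23674960 gene counts and had reads on 20887 genes at equal depth, against 14168 to 14745 in the other tumor-free libraries. The summed NK markers reached 15273 CPM in lymphatic library 2, and the summed T cell markers reached 1058 CPM in hematogenous library 2. Erythroid and platelet markers summed to 14.4 CPM in tumor-free library 4, and stromal and endothelial markers to 129.6 CPM in tumor-free library 3. No explanation of these values was tested.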

How the results depend on the processing

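The calls of Aldoa, Tpi1, Eno1, Ldha, Tkt and Taldo1 in both hematogenous comparisons, of Pdk1 against tumor-free nodes, of Gapdh against lymphatic nodes and between lymphatic and tumor-free nodes, and of Pgk1 and Pkm against lymphatic nodes kept direction and threshold under all 10 alternatives and without each of the 12 libraries. Members called lower in hematogenous nodes numbered 6 to 12 against tumor-free nodes and 10 to 13 against lymphatic nodes over the 10 alternatives, and 7 to 10 and 9 to 12 over the left-out libraries. Members called higher against lymphatic nodes numbered 0 with voom and 1 with the length trend removed (0 to 2 over left-out libraries). Between lymphatic and tumor-free nodes 2 members were called higher without the expression filter, and 1 lower with DESeq2. Genes called there numbered 729 with DESeq2 (255 to 634 over left-out libraries, lowest without lymphatic library 4). Between hematogenous and lymphatic nodes they numbered 870 with voom (620 to 1572 over left-out libraries, with 620 without lymphatic library 2 and without hematogenous library 3, and 811 without hematogenous library 1).

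Directions turned for values near 0 that were not called, and the cause was not tested. For lymphatic against tumor-free nodes, the log2 fold change of Aldoa was -0.031 with DESeq2 size factors, -0.038 with upper-quartile scaling, -0.044 with library size alone, -0.031 with DESeq2, -0.011 with voom, -0.0017 with the compared groups alone and -0.061 with the length trend removed. That of Tkt was -0.051, -0.060, -0.066, -0.051, -0.077, -0.023 and -0.11 under these settings, -0.0049 without the filter and -0.048 at equal depth. For hematogenous against tumor-free nodes, Hk2 stood at 0.22 with voom, Gapdh at -0.015 with the block, -0.025 at equal depth and -0.035 with the length trend removed, and Hif1a at -0.0059 at equal depth and -0.078 with the length trend removed. Over left-out libraries, values for lymphatic against tumor-free nodes ran from -0.11 to 0.12 for Aldoa, -0.057 to 0.21 for Tpi1, -0.0045 to 0.19 for Eno1, -0.056 to 0.28 for Slc16a1 and -0.11 to 0.093 for Tkt. Those for hematogenous against tumor-free nodes ran from -0.64 to 0.27 for Hk2, -0.13 to 0.12 for Gapdh and -0.026 to 0.20 for Hif1a.

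Deviations from the group means correlated at -0.073 to 0.059 between same-numbered samples and at -0.10 to 0.15 between the others. These values cannot show whether same-numbered samples shared a batch or a day, which the labels do not state. With the replicate number as a block, 2518 genes were called in hematogenous against tumor-free nodes, 1439 in hematogenous against lymphatic nodes and 362 in lymphatic against tumor-free nodes. Members called lower then numbered 9, 13 and 0, and Eno3 and Slc16a1 were no longer called against tumor-free nodes (adjusted p = 0.0555 and 0.0772). Of the genes called between hematogenous and lymphatic nodes 33.1% were higher, and 55.8% with library size alone, where the median of all genes moved to 0.0998 and the members' median stayed 0.27 below it. Of those called against tumor-free nodes 58.1% were higher, and 39.7% with the length trend removed. Between lymphatic and tumor-free nodes 84.7% were higher, 73.2% with library size alone and 65.8% with the length trend removed. Depth limits the low members most, with Aldoc, Eno2, Ldhb, Pdk4 and Pfkfb4 under 5 CPM on average.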
